A study of Mus musculus with 8 samples.

Results

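The 10 genes examined encode enzymes of branched-chain amino acid (BCAA) catabolism and the regulators of its committed step, namely Bcat1, Bcat2, Bckdha, Bckdhb, Dbt, Bckdk, Ppm1k, Ivd, Acadsb and Hibadh. They were taken by name from the 31053 genes of the count table, and all 10 were found. The list was chosen with earlier results of these data known. Their mRNA was measured by bulk RNA-seq in brown adipose tissue (BAT), the thermogenic fat, of 4 WT mice and 4 ATGLKO mice, with 1 library per mouse. All mice were C57BL6/J animals of 10 weeks according to the sample labels, while a figure legend of the study gives a younger age. The study states that its mice were males on normal diet, and that tissues were harvested after fasting. ATGLKO mice, written Ucp1Δ/Δ in the study, carry floxed Pnpla2 alleles and a Cre recombinase driven by Ucp1, so that the triglyceride lipase ATGL is deleted in UCP1+ adipocytes and not in the other cells of the tissue. The labels do not say whether WT mice carried the floxed alleles or the Cre. The labels name both BAT and its stromal vascular fraction, the non-adipocyte cells left after digestion.

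BCAAs are leucine, isoleucine and valine. A transaminase, BCAT1 in the cytosol or BCAT2 in mitochondria, reversibly moves their amino group to alpha-ketoglutarate, and the branched-chain ketoacid dehydrogenase (BCKDH) complex then commits the resulting ketoacids to oxidation. The kinase BCKDK inactivates the complex by phosphorylating its E1 alpha subunit, the phosphatase PPM1K reverses this, and separate dehydrogenases carry each carbon skeleton on towards acetyl-CoA, acetoacetate or succinyl-CoA. Brown adipocytes are known to import BCAAs into mitochondria and to burn them during cold exposure.

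Pnpla2, the deleted gene, was at 2837, 2702, 2961 and 3152 CPM, counts scaled to library size, in the WT mice and at 514, 448, 403 and 531 CPM in the ATGLKO mice, a log2 fold change (log2FC) of -2.62 (adjusted p = 1.97e-07, edgeR quasi-likelihood test, Benjamini-Hochberg over all tested genes). The 8 libraries held 2017697 to 3115956 counts, and the totals of the genotypes overlapped (exact permutation test, two-sided, p = 0.629). Mitochondrially encoded genes took 38.4 to 45.6% of the counts. At this depth 3 counts correspond to 0.933 to 1.53 CPM, a floor that reflects counting error only. Brown adipocyte markers summed to 11064 to 24848 CPM over the 8 libraries, so adipocyte mRNA was abundant despite the stromal vascular label. Skeletal muscle markers ranged from 25.4 to 2315 CPM and were high in WT replicates 1 and 4 and in ATGLKO replicates 2 and 4. In a tissue homogenate, fewer cells of a type and less RNA per cell cannot be told apart.

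Across the BCAA genes, the E2 subunit of the BCKDH complex, Dbt, fell to 0.653 of its WT level in ATGLKO BAT. Dbt was the only member called in the main test. The cytosolic transaminase Bcat1 went from 3 counts in all WT mice to 124 in all ATGLKO mice. Bcat1 was not among the genes tested there, so its rise has no call in the main test. Of the 10 members, 9 passed the filter on low counts, and 1 of these 9, Dbt, was called lower at an adjusted p under 0.05, while 0 were called higher. Over all 8930 genes tested, 21.0% were called, 13.3% as higher and 7.63% as lower. With DESeq2's Wald test, Ivd and Acadsb were called lower as well. Bcat1 was called higher there, with a mean count that came almost wholly from the ATGLKO mice. The median log2FC of the 9 tested members was -0.28, beside -0.0087 over all tested genes, and 8 of the 9 lay below 0. With scaling by total counts only, the median over all genes was 0.13, the members' median was -0.14, and 8 of 9 were still below 0, whereas with DESeq2 size factors Bckdhb turned as well and 9 of 9 were below 0. In 4 of the 9 tested members, namely Dbt, Ivd, Acadsb and Hibadh, every ATGLKO mouse was below every WT mouse, an order that held for 9.37% of all tested genes.

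**Figure D1:**
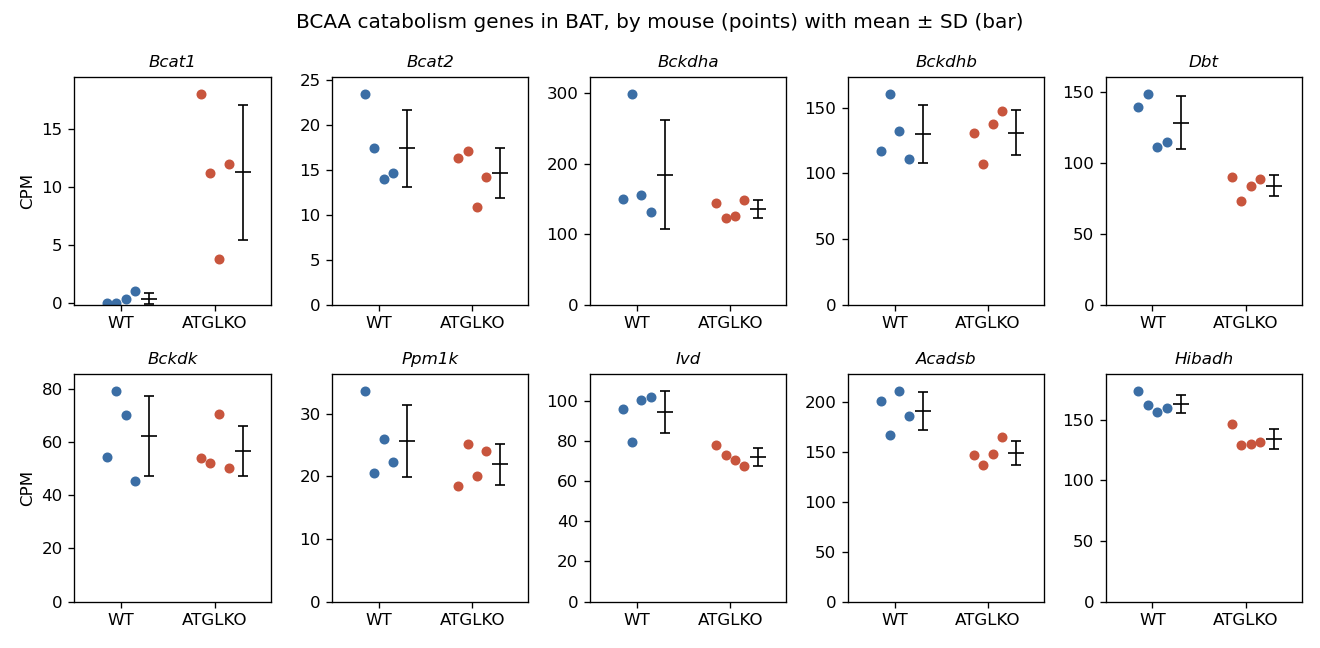
CPM of the 10 BCAA genes (one panel each, own linear axis that includes 0) in 4 WT (blue) and 4 ATGLKO (red) mice. Points are mice in replicate order and bars are mean ± SD. Dbt, Ivd, Acadsb and Hibadh separate the genotypes downwards, Bcat1 separates them upwards, and the other 5 overlap.

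The transaminases differed in how they behaved. Bcat1 (ENSMUSG00000030268, minus strand, chr6:144993835-145076184 in mm10), the cytosolic isoenzyme best known from brain, had 0, 0, 1 and 2 counts in WT replicates 1 to 4. The ATGLKO mice had 51, 36, 9 and 28 counts of Bcat1. Each WT mouse was at or below 2 counts and each ATGLKO mouse at 9 or more, so the groups did not overlap. In CPM, Bcat1 was 0.337 ± 0.478 (SD, n = 4) in WT and 11.3 ± 5.85 (SD, n = 4) in ATGLKO mice. The pooled counts, 3 against 124, gave a ratio of rates of 35.2 with a 95% interval of 11.8 to 173, which covers counting error only. The difference in mean log2 CPM, computed with a prior count of 2, was 3.32, and an exact two-sided permutation test over the mice gave p = 0.0286, the lowest value attainable with groups of 4. The default filter removed Bcat1 because ATGLKO replicate 3 had so few counts, and it therefore had no adjusted p in the main test. When every gene with at least 1 count was kept, its log2FC was 4.89 (adjusted p = 3.65e-14, edgeR quasi-likelihood test). With that filter Pnpla2 also went from an adjusted p of 1.97e-07 to 9.9e-27 at a similar log2FC (same test). The size of such a value is therefore no measure of strength here. DESeq2 gave a log2FC of 5.07 (adjusted p = 4.25e-06, Wald test). The mean count of Bcat1, on which DESeq2 filters, came almost wholly from the ATGLKO mice, so this call is no added support. An antisense gene, Gm26666, shares 337 bp with the exons of Bcat1, and it had 0 counts except for 1 in ATGLKO replicate 4.

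Bcat2 (ENSMUSG00000030826, plus strand, chr7:45570153-45589711), the mitochondrial isoenzyme, was at 23.5, 17.5, 14.0 and 14.7 CPM in WT mice and at 16.3, 17.1, 10.9 and 14.2 CPM in ATGLKO mice. The ranges overlapped, and only WT replicate 1 lay above all ATGLKO mice by a clear margin. Its log2FC was -0.23 (95% interval -0.73 to 0.27, adjusted p = 0.539, edgeR quasi-likelihood test), so neither a moderate decrease nor a slight increase was resolved. Antisense 0610005C13Rik overlaps 622 bp of the Bcat2 exons and had between 0 and 4 counts per library.

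The sequences around the start sites of both transaminase genes are shown because they encode enzymes of the same reaction whose mRNAs differed in behaviour. RefSeq lists a second start for each gene, and the windows shown are those nearest to the GENCODE start. Each runs from 250 bases before to 50 bases after the start in RefSeq on GRCm38.p6, and capitals mark a CCAAT box, here read on the opposite strand.
Bcat1 promoter (chr6:145076108-145076407, minus strand): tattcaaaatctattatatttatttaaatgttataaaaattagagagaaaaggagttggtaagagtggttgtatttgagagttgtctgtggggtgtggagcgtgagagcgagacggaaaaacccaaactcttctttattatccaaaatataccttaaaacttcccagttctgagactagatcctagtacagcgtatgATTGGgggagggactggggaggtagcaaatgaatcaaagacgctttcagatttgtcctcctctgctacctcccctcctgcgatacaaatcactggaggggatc
Bcat2 promoter (chr7:45569903-45570202, plus strand): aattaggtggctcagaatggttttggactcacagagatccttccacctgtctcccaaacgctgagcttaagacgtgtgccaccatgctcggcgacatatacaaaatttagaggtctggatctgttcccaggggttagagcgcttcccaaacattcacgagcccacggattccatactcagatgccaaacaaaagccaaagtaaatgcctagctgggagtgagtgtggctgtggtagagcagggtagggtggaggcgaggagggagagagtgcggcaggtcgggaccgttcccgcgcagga
The Bcat1 window was 41% GC with 6 CpG and the Bcat2 window 54% GC with 13 CpG, beside medians of 52.7% and 7 CpG over 32851 mouse promoters. The second windows reversed this contrast, with 58.7% GC, 16 CpG and no CCAAT box for Bcat1 and 50.3% GC and 9 CpG for Bcat2. Motif letters were searched on both strands. The E-box CACGTG occurred in 7.15% of all promoters and the CCAAT box, spelled as its name, in 37.4%. The C/EBP-ATF element TGATGNAA occurred in 3.97% and the PU box GAGGAA in 28.3%. In the window nearest to the GENCODE start of the 9 members with an entry, which leaves out Dbt, the CCAAT box was found in 6, the PU box in 2 and the E-box and the C/EBP-ATF element in 0. No match overlapped another in these windows. Such matches describe the letters of the windows only.

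Of the 3 BCKDH-specific subunits, the E2 core was the one that passed the test. Dbt (ENSMUSG00000000340, plus strand, chr3:116513070-116549981) encodes E2, the transacylase that forms the core of the complex and hands the acyl group to coenzyme A. It was at 139, 148, 111 and 115 CPM in WT mice and at 89.9, 73.1, 83.6 and 88.4 CPM in ATGLKO mice. The highest ATGLKO mouse was thus below the lowest WT mouse. Dbt averaged 128 ± 18.4 CPM (SD, n = 4) in WT and 83.7 ± 7.58 CPM (SD, n = 4) in ATGLKO mice, and it fell to 0.653 of the WT level (log2FC -0.61, SE 0.17, 95% interval -0.97 to -0.26, adjusted p = 0.0154, edgeR quasi-likelihood test). Without ATGLKO replicate 2, its log2FC was -0.54 and the adjusted p was 0.0627. The remaining single exclusions kept the call, as did the alternative scalings, filters and tests.

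Bckdha (ENSMUSG00000060376, minus strand, chr7:25629946-25658981) encodes E1 alpha, the subunit that carries the regulatory phosphorylation. Its levels were 149.9, 298.8, 155.9 and 131.7 CPM in WT mice and 143.6, 122.9, 126.2 and 148.5 CPM in ATGLKO mice. WT replicate 2 stood far above the other 7 libraries, which shared one narrow range. The log2FC of Bckdha was -0.44 (95% interval -0.94 to 0.05, adjusted p = 0.198, edgeR quasi-likelihood test), and it was -0.12 without WT replicate 2. Of the 1899 exonic bp of Bckdha, 1171 are shared with B3gnt8 on the opposite strand, so reads of the pair may not be separable if strand was not used in counting. B3gnt8 itself had 2, 7, 7 and 4 counts in WT and 22, 30, 18 and 28 counts in ATGLKO mice, far below the counts of Bckdha.

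Bckdhb (ENSMUSG00000032263, plus strand, chr9:83925145-84124240) encodes E1 beta, the partner of E1 alpha in the decarboxylase. It was at 117, 160, 132 and 111 CPM in WT mice and at 131, 107, 138 and 148 CPM in ATGLKO mice. The groups covered the same range. The log2FC was 0.0060 (95% interval -0.37 to 0.38, adjusted p = 0.988, edgeR quasi-likelihood test), and its sign changed between settings.

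The regulators of the complex were next compared. Bckdk (ENSMUSG00000030802, plus strand, chr7:127904082-127910221), the inactivating kinase, was at 54.6, 79.3, 70.1 and 45.6 CPM in WT and at 54.1, 52.3, 70.6 and 50.2 CPM in ATGLKO mice. Ppm1k (ENSMUSG00000037826, minus strand, chr6:57506502-57535468), the activating phosphatase, was at 33.7, 20.6, 26.0 and 22.3 CPM in WT and at 18.4, 25.2, 20.1 and 24.0 CPM in ATGLKO mice. Both overlapped between genotypes. The log2FC was -0.14 for Bckdk (95% interval -0.56 to 0.28, adjusted p = 0.670) and -0.22 for Ppm1k (95% interval -0.67 to 0.22, adjusted p = 0.506, edgeR quasi-likelihood test for both).

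Ratios of counts within a library need no scaling between libraries. Since the level of such a ratio also reflects transcript length, only its difference between genotypes was read. The log2 ratio of Bckdk to Ppm1k was 1.27 ± 0.53 (SD, n = 4) in WT and 1.36 ± 0.38 (SD, n = 4) in ATGLKO mice, a difference of 0.10 (exact two-sided permutation test, p = 0.771). The ratio of Bckdhb to Bckdha was -0.43 ± 0.31 in WT and -0.053 ± 0.14 in ATGLKO mice, with every ATGLKO mouse above every WT mouse. This difference of 0.38 had p = 0.0286 by the exact permutation test and 0.143 after Benjamini-Hochberg adjustment over the 5 ratios, and it was 0.23 without WT replicate 2, the library with the high Bckdha value. The differences in log2 ratio to Bckdha were 0.25 for Bckdk, 0.16 for Ppm1k and -0.24 for Dbt, with exact permutation p of 0.343, 0.886 and 0.314. After adjustment 0 of the 5 ratios passed the threshold, and 1 of 5 had an unadjusted p under 0.05.

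**Figure D2:**
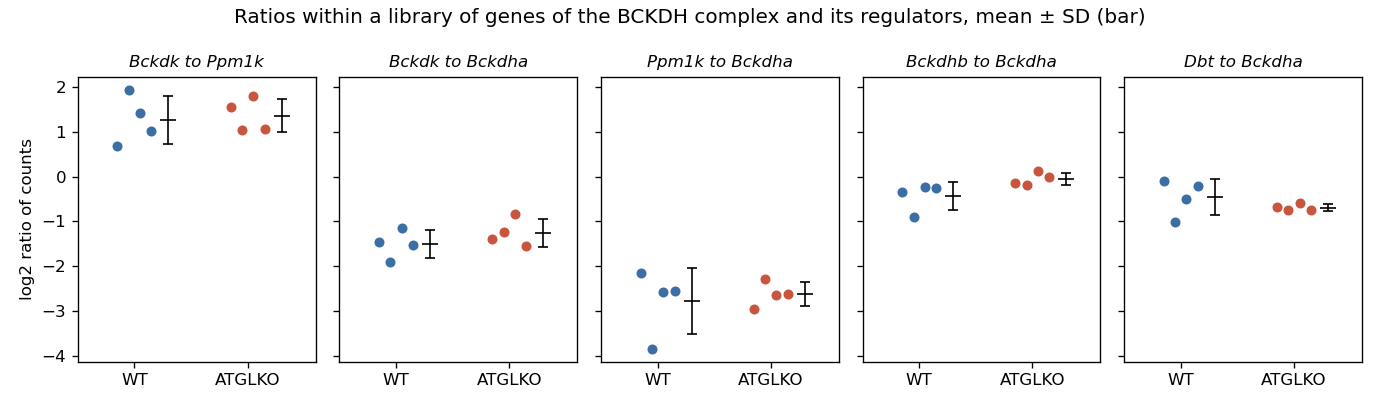
Log2 ratios of counts within each library for pairs of BCKDH complex and regulator genes (common vertical axis in log2 units) in 4 WT (blue) and 4 ATGLKO (red) mice, with mean ± SD as bars. Only Bckdhb to Bckdha separates the genotypes, with an adjusted p of 0.143 over 5 ratios (exact permutation test), and WT replicate 2, the second blue point, is lowest in the 4 ratios to Bckdha.

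Downstream of the complex, separate dehydrogenases serve the branches. The 3 among the members, Ivd, Acadsb and Hibadh, were lower in each ATGLKO mouse than in any WT mouse, by margins that did not pass the adjusted threshold. This order did not extend to every branch dehydrogenase, since Acad8, the isobutyryl-CoA dehydrogenase of the valine branch, was at 34.7 to 52.9 CPM in WT and 23.4 to 42.6 CPM in ATGLKO mice, with overlap (adjusted p = 0.266, edgeR quasi-likelihood test). Ivd (ENSMUSG00000027332, plus strand, chr2:118861954-118882909), isovaleryl-CoA dehydrogenase of the leucine branch, was at 95.9, 79.3, 100.5 and 101.8 CPM in WT and at 77.8, 72.8, 70.2 and 67.4 CPM in ATGLKO mice. The gap between the groups was small, as WT replicate 2 lay just above ATGLKO replicate 1. The means were 94.4 ± 10.4 and 72.1 ± 4.44 CPM (SD, n = 4 each), with a log2FC of -0.39 (95% interval -0.72 to -0.05, adjusted p = 0.0974, edgeR quasi-likelihood test). Without WT replicate 2, Ivd passed the threshold (log2FC -0.47, adjusted p = 0.0273), and DESeq2 also called it (adjusted p = 0.0464).

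Acadsb (ENSMUSG00000030861, plus strand, chr7:131410601-131448944), the short/branched-chain acyl-CoA dehydrogenase of the isoleucine branch, was at 200.4, 166.7, 210.7 and 185.4 CPM in WT and at 146.8, 136.3, 147.9 and 164.8 CPM in ATGLKO mice. Its groups nearly touched at WT replicate 2 and ATGLKO replicate 4. The log2FC was -0.36 (95% interval -0.69 to -0.02, adjusted p = 0.124, edgeR quasi-likelihood test), and DESeq2 gave an adjusted p of 0.0378. Hibadh (ENSMUSG00000029776, minus strand, chr6:52546228-52640389), which oxidises 3-hydroxyisobutyrate in the valine branch, was at 173.9, 162.6, 156.9 and 160.1 CPM in WT and at 146.8, 129.1, 130.0 and 131.8 CPM in ATGLKO mice. Both groups were tight, with means of 163 ± 7.37 and 134 ± 8.34 CPM (SD, n = 4 each). Its log2FC was -0.28 (95% interval -0.60 to 0.04, adjusted p = 0.213, edgeR quasi-likelihood test), and it was not called by any test run.

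The 28 other genes of BCAA uptake and breakdown were examined by step. Of the 27 tested, 5 rose and 7 fell in ATGLKO BAT, 15 were not called, and the median log2FC was -0.36, beside 13.3% higher and 7.63% lower over all tested genes. With scaling by total counts only, 5 rose and 2 fell. Among the 5 tested transporters, 3 rose and 1 fell. The plasma membrane transporters Slc7a8 (log2FC 1.76, adjusted p = 0.00388) and Slc43a2 (log2FC 1.22, adjusted p = 0.00107) were higher, as was Slc3a2, the heavy chain that pairs with amino acid transporters (log2FC 0.67, adjusted p = 0.0403). These values come from the edgeR quasi-likelihood test over all tested genes. Slc7a5, a light chain partner of Slc3a2, had 0 to 6 counts per mouse and was not tested. In contrast, Slc25a44, the mitochondrial BCAA carrier, was at 116.8, 100.8, 82.1 and 99.8 CPM in WT and at 60.9, 55.7, 65.6 and 57.9 CPM in ATGLKO mice. Every ATGLKO mouse was thus below every WT mouse for this carrier, with a log2FC of -0.73 (SE 0.16, adjusted p = 0.00463, edgeR quasi-likelihood test). The 3 called genes of the plasma membrane thus moved upwards, while Slc25a44, the only mitochondrial carrier in the list, moved downwards. For Slc3a2 the groups overlapped, at up to 40.0 CPM in WT and from 34.7 CPM in ATGLKO mice. The transporter list kept its 3 higher and 1 lower calls under each scaling. Slc43a1, also at the plasma membrane, lay below 0 without a call (log2FC -0.77, adjusted p = 0.338, edgeR quasi-likelihood test). Slc7a8 had only 7, 6, 6 and 6 counts in WT replicates 1 to 4. It passed the filter on low counts only through the ATGLKO mice, at 28, 26, 12 and 35 counts, which limits its call.

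Dld encodes E3, the dihydrolipoamide dehydrogenase that BCKDH shares with the pyruvate and alpha-ketoglutarate dehydrogenase complexes. It was at 278.9, 328.4, 284.8 and 218.8 CPM in WT and at 210.9, 175.5, 195.6 and 206.5 CPM in ATGLKO mice, again without overlap. Its log2FC was -0.50 (adjusted p = 0.0463, edgeR quasi-likelihood test). In the leucine branch, 1 of 5 genes fell, the biotin-dependent carboxylase subunit Mccc1 (log2FC -0.52, adjusted p = 0.0464), and 1 rose. The riser was Oxct1, which activates acetoacetate in ketone body use (285 ± 38.9 CPM in WT and 485 ± 71.0 CPM in ATGLKO, SD, n = 4 each). Its log2FC was 0.77 (adjusted p = 0.00424, edgeR quasi-likelihood test for these genes).

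All 6 genes of the isoleucine and valine branches and all 6 of the propionyl-CoA steps lay below 0, and 2 of 6 were called lower in each list, beside 7.63% of all tested genes. With scaling by total counts only, 5 of 6 and 6 of 6 lay below 0, and 1 and 0 were called. Aldh6a1, the methylmalonate semialdehyde dehydrogenase that follows Hibadh in the valine branch, averaged 147 ± 31.9 CPM in WT and 84.2 ± 14.9 CPM in ATGLKO mice (SD, n = 4 each). Each ATGLKO mouse was below each WT mouse, and the log2FC of Aldh6a1 was -0.81 (adjusted p = 0.00726, edgeR quasi-likelihood test). Hsd17b10, which acts in the isoleucine branch, had a log2FC of -0.70 (adjusted p = 0.0208) although WT replicate 4 lay within the ATGLKO range. Mmab and Mmaa, which handle the cobalamin cofactor of methylmalonyl-CoA mutase, had a log2FC of -0.81 (adjusted p = 0.0220) and -0.53 (adjusted p = 0.0428). Mmut, the mutase itself, had a log2FC of -0.46 (adjusted p = 0.0872, edgeR quasi-likelihood test for these genes).

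Of the 3 enzymes that take up or regenerate the amino group acceptor, 1 was called higher, beside 13.3% of all tested genes, and 2 were not called. The called gene, Got2, the mitochondrial aspartate aminotransferase, rose from 31.9 ± 5.95 to 61.1 ± 1.22 CPM (SD, n = 4 each). The log2FC of Got2 was 0.94 (adjusted p = 0.00109, edgeR quasi-likelihood test), and its groups did not overlap. Klf15, a transcription factor known to control BCAA catabolism genes, had only 4 to 20 counts per mouse and a log2FC of -0.26 (95% interval -1.24 to 0.72, adjusted p = 0.746, edgeR quasi-likelihood test).

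The number of the other pathway genes called lower depended on the setting. It was 2 with scaling by total counts only and 3 or 4 when any mouse other than WT replicate 4 was left out. Slc25a44 and Aldh6a1 passed the threshold in each fit run, and so did Oxct1, Got2 and Slc43a2 among the higher genes. Slc7a8 was also called in every single exclusion. It had 6 or 7 counts per WT mouse and passed the filter only through the ATGLKO mice, where it is high. These calls are therefore no sign of stability, and Slc7a8 was not tested under the filter of 10 counts in every mouse. The remaining called genes depended more on the choice of mice, since Hsd17b10 lost its call in 3 of the 8 single exclusions, Mmab in 4, Mccc1 and Slc3a2 in 6, and Dld and Mmaa in 7. Across all alternatives the adjusted p of these genes reached 0.0738 for Hsd17b10, 0.0720 for Mmab, 0.154 for Mccc1, 0.138 for Slc3a2, 0.142 for Dld and 0.146 for Mmaa (edgeR quasi-likelihood test in each case).

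**Figure D3:**
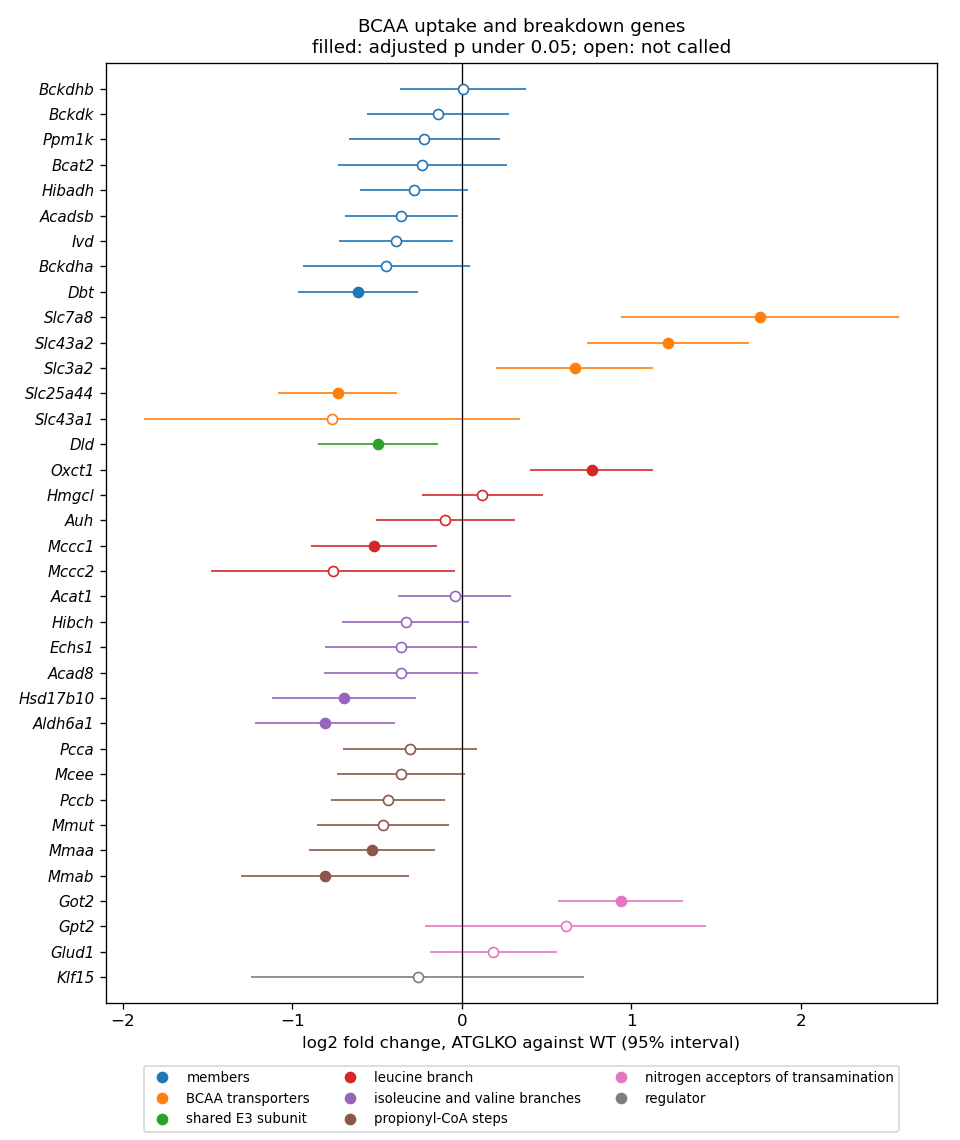
Log2 fold change of ATGLKO against WT (horizontal axis, log2 units, 95% interval as line) for the 9 tested members and 27 tested other genes of BCAA uptake and breakdown, coloured by step. Filled points have an adjusted p under 0.05 (edgeR quasi-likelihood test). The mitochondrial steps lie mostly left of 0, while Slc7a8, Slc43a2, Slc3a2, Oxct1 and Got2 lie to the right.

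Mitochondrial pathways that meet BCAA breakdown were set beside it. Of the 16 tricarboxylic acid cycle enzymes, all tested, 0 were called, 16 were below 0 (11 with scaling by total counts only), and the median log2FC was -0.18. Of the pyruvate dehydrogenase complex and its regulators, 8 of 10 were tested, 5 were called lower (4 with scaling by total counts only) and 0 higher, beside 7.63% and 13.3% of all tested genes, and the median was -0.66. The 9 tested members, at a median of -0.28 with 1 lower, lay between these lists. No test of the difference between the lists was made.

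Markers of several cell types differed between the same mice. The 12 brown adipocyte markers, all tested, held 4 called lower and 1, the deiodinase Dio2, called higher, and their summed level was 14134 to 24848 CPM in WT and 11064 to 16488 CPM in ATGLKO mice, with overlap. Ucp1 was at 2051, 4110, 3427 and 1291 CPM in WT and at 2821, 1421, 1972 and 2394 CPM in ATGLKO mice (log2FC -0.34, adjusted p = 0.481, edgeR quasi-likelihood test). Macrophage markers summed to 106 to 164 CPM in WT and to 1039 to 1709 CPM in ATGLKO mice, and 11 of 11 tested were higher. Each of the 12 macrophage markers had counts in at least 1 WT mouse.

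Fibroblast markers summed to 340 to 534 CPM in WT and to 1068 to 2163 CPM in ATGLKO mice, with 6 of 6 higher, while 0 of 5 tested endothelial markers (2 of 5 with scaling by total counts only) and 0 of 9 tested skeletal muscle markers were called. Every tested macrophage and fibroblast marker was called higher, which for the macrophage markers was partly set by the filter. Over all tested genes, 13.3% were called higher, and in 14.4% every ATGLKO mouse exceeded every WT mouse. Bcat1, the member without overlap in the same direction, was lowest among ATGLKO mice in replicate 3, where macrophage and fibroblast markers were also lowest. It was highest in replicate 1, whereas both marker sums were highest in replicate 2. The part of these cell types in the values of Bcat1, Dbt, the downstream dehydrogenases, the transporters and the other pathway genes was not tested.

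**Figure D4:**
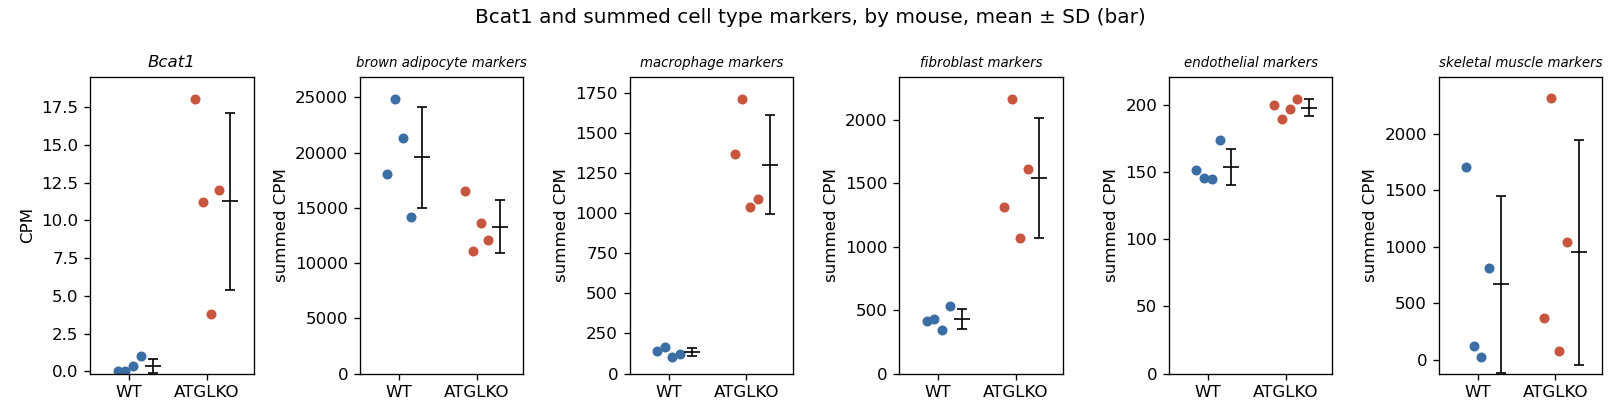
Bcat1 (CPM, left) and summed CPM of the brown adipocyte, macrophage, fibroblast, endothelial and skeletal muscle markers in 4 WT (blue) and 4 ATGLKO (red) mice, each on its own linear axis that includes 0, with mean ± SD as bars. Bcat1, macrophage, fibroblast and endothelial sums separate the genotypes upwards, the brown adipocyte sum overlaps, and the skeletal muscle sum varies widely within both.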

How the data were processed

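BAT of 4 WT and 4 ATGLKO mice was profiled by single-end RNA-seq, and genotypes and replicate numbers were read from the sample labels. The authors used bbduk for trimming, STAR 2.6.0a for alignment to mm10 and HTseq-counts 0.9.1 for counting by gene, and deposited raw counts. The submitters' processing notes name other tools, Trimmomatic, HISAT2 and DESeq2. Annotation release and strand setting are not given in the sources used here. The deposited log2 values were not used.

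Symbols and positions came from GENCODE M21, which named 30934 of 31053 genes, and promoters from RefSeq (GRCm38.p6). With R 4.3.3, genes were filtered by filterByExpr, scaled by TMM and tested with edgeR 4.0.16 (quasi-likelihood) on genotype, with Benjamini-Hochberg adjustment over 8930 genes and a threshold of 0.05. DESeq2 1.42.0 and limma 3.58.1 (voom) were alternatives, beside other scalings and filters, removal of mitochondrially encoded genes, a replicate block and exclusion of each mouse. CPM uses TMM-scaled library sizes. Ratios used a pseudocount of 0.5 and exact permutation tests over mice. The tests were checked on simulated counts.

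Named genes were all 10 members, Pnpla2, Ucp1, every other pathway gene past the threshold up to 12, and Slc25a44, Klf15, Mmut and Dld. Marker lists are given by counts and summed level, and single genes of these only where 3 or fewer passed. Genes overlapping the exons of members, Slc7a5 as the one untested pathway gene, Slc43a1 as the one tested transporter not called, and Acad8 were chosen with their values in view. The members and lists were chosen with earlier results of these data known. The labels do not describe housing or litters, so any difference in these between the groups cannot be told apart from genotype. The p-values weigh the difference between genotypes against the spread between these mice.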

Additional observations from a re-analysis of the deposited data

Results flagged for a closer look

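Of 70 groups of 4 libraries examined for a single library far from the others, 2 were flagged, and chance flags about 1 in 20 groups. For Bckdha, WT replicate 2 was at 299 CPM while the other WT mice were at 132 to 156 CPM, so that its gap took 0.855 of the group's range. For Hibadh, ATGLKO replicate 1 was at 147 CPM while the other ATGLKO mice were at 129 to 132 CPM, a gap of 0.851 of the range.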

How the results depend on the processing

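Across 366 alternative fits of the 23 named genes, 305 kept direction and side of the threshold, 49 lost the call, 4 gained one and 8 changed sign. The number of members called lower was 1 in the main test, 3 with DESeq2's Wald test (Dbt, Ivd and Acadsb) and 0 to 2 with single mice left out. The number called higher was 0 in the main test, 1 (Bcat1) with a filter of at least 1 count in any mouse and 1 with DESeq2, and 0 to 1 with single mice left out. The DESeq2 call of Bcat1 rests on a mean count that came almost wholly from the ATGLKO mice. With single mice left out, Bcat1 passed the filter in 5 fits, and in these only through the ATGLKO mice in which it is high, so its values there (log2FC 4.55 to 5.92, adjusted p 1.98e-05 to 0.000887) are no sign of stability. The other pathway genes called lower numbered 7 in the main test, 2 with total counts only, 4 under the filter of 10 counts per mouse and 3 to 9 with single mice left out. Over all genes, 1195 were called under that filter, against 1872 in the main test, and 1345 to 2155 with single mice left out. Scaling by total counts only gave 1478 higher and 404 lower genes, against 1191 and 681. Bckdhb had a log2FC of -0.012 with DESeq2 size factors, -0.019 with the filter of at least 1 count, -0.033 with DESeq2's Wald test and -0.073 to 0.11 with single mice left out. Klf15 ranged from -0.51 to 0.10, the log2 ratio of Bckdk to Ppm1k from -0.096 to 0.32 and that of Ppm1k to Bckdha from -0.20 to 0.37 with single mice left out. The cause of these changes was not tested.

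The correlations of same-numbered deviations were -0.087, -0.20, 0.30 and 0.24. Differently numbered mice were not compared, so these values cannot decide whether the replicate numbers pair the mice. With the replicate block, 4 other pathway genes were called lower. The Bckdhb to Bckdha ratio differed by 0.38 with p = 0.125 by an exact sign-flip test of the 4 same-numbered differences. That is the lowest value this test can give, so it could not pass the threshold. Library totals of 2017697 to 3115956 counts limit what can be said of genes with few counts, such as Bcat1 in WT mice and Klf15.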
